A study of Rattus norvegicus with 8 samples.

Results

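The genes of the provisional matrix and of coagulation control studied here, Fn1, Vtn, F3, F2r, F13a1, Tfpi, Tfpi2, Thbd, Tgm2 and Procr, were followed in the rat carotid artery 2 weeks after intimal injury. They were chosen by symbol, and all 10 were found among the 37209 genes of the count table. Male Sprague-Dawley rats were wounded in the left carotid artery with a balloon dilatation catheter. The 4 injured arteries were compared with 4 unwounded right carotid arteries of operated rats, which the study calls the self-control. Age was not given in the sources used here. No genotype or drug differed between the groups, and no artery of an unoperated rat was among the samples. Whole arteries were sequenced, so that fewer cells of a type and less RNA per cell cannot be told apart.

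When the endothelium is stripped from an artery, plasma reaches the media and a provisional matrix of fibrin, fibronectin and vitronectin forms on the wound, on which smooth muscle cells adhere and migrate. Transglutaminases cross-link this matrix. Coagulation starts when tissue factor (F3) in the wall binds factor VIIa, and it is held in check by tissue factor pathway inhibitor (Tfpi) and by the protein C pathway, in which thrombin bound to thrombomodulin (Thbd) activates protein C on its receptor (Procr).

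The libraries held 13470754 to 15276952 counts in the control arteries and 11459632 to 16658089 in the injured arteries. Levels are given as CPM, the counts scaled to a common library size with TMM factors, which adjust each library for its composition, and a gene was called when its false discovery rate in edgeR's quasi-likelihood test was under 0.05 and its fold change was above 2. The contractile smooth muscle markers of an artery were abundant in every library, with a summed level of at least 10668 CPM, whereas 4 brain neuron markers summed to at most 2.62 CPM, although a protocol text of the labels speaks of prefrontal cortex. Control artery 4 stood apart. Across genes, the correlation of its log2 CPM with control arteries 1 to 3 was 0.83 to 0.852, whereas these 3 correlated with each other at 0.976 to 0.978. The 8 sympathetic neuron markers summed to 10420 CPM there, 4.18 to 7.76 CPM in the other controls, 2078 CPM in injured artery 3, 149 CPM in injured artery 1 and at most 8.1 CPM in the other two injured arteries. Its contractile marker sum of 17685 CPM lay below the 37670 to 51199 CPM of the other controls. Values without this artery are therefore also given.

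Of the 10 genes, 4 were called, Vtn and Tfpi as higher and F3 and Tgm2 as lower in the injured arteries. All 10 had passed the filter on low counts. Over all 14359 genes tested, 10.9% were called, 8.31% as higher and 2.57% as lower. The same 4 genes were those whose CPM did not overlap between the groups, which held for 23.7% of all genes tested. Tfpi2, Fn1, F13a1, F2r, Thbd and Procr were not called. With the false discovery rate as the only criterion, 17.2% of all genes tested were called, and of the 10 genes the same 4. The median log2 fold change of the 10 genes was -0.21, and that of all genes tested was -0.06. Without control artery 4, the same 4 genes were called.

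**Figure D1:**
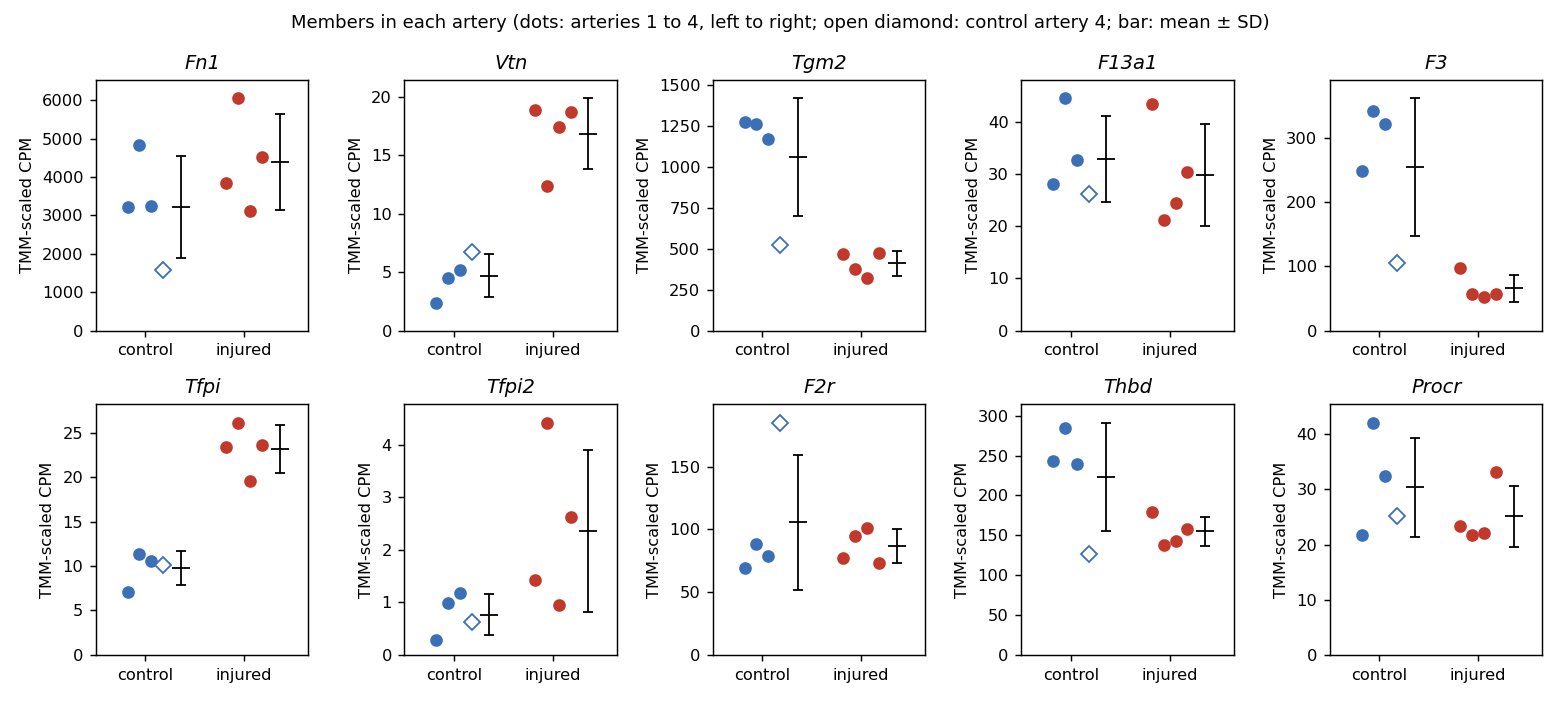
TMM-scaled CPM (vertical axis, from 0) of each of the 10 genes in the 4 control and the 4 injured arteries, one dot per artery in the order 1 to 4, with control artery 4 as an open diamond and the mean ± SD (n = 4) as a bar. The injured arteries lie above every control for Vtn (12.4 to 18.8 CPM) and Tfpi (19.5 to 26.1 CPM), below every control for F3 (52.7 to 97.3 CPM) and Tgm2 (320 to 476 CPM), and overlap the controls for the other 6 genes.

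Fibronectin (Fn1), the adhesive glycoprotein that carries the provisional matrix, was abundant in both groups, with at least 22704 counts in every library. Its level was 3210.0, 4824, 3246 and 1578 CPM in control arteries 1 to 4 and 3849, 6047, 3123 and 4510.2 CPM in injured arteries 1 to 4. The groups overlapped, with control artery 2 above 3 of the injured arteries and control artery 4 the lowest of all. In the comparison of the groups, Fn1 was higher by 0.45 on the log2 scale after injury (standard error 0.36, 95% interval -0.37 to 1.26, adjusted p = 0.438 in edgeR's quasi-likelihood test). Without control artery 4 it was 0.22, with an interval from -0.36 to 0.79. A doubling of Fn1 mRNA lay within the first interval and outside the second.

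Vitronectin (Vtn), a plasma and matrix protein that binds integrins and the plasminogen activator inhibitor, was sparse in the control arteries and rose after injury. The control arteries had 33, 55, 75 and 97 counts and the injured arteries 315, 171, 310 and 229. On the CPM scale these were 2.38, 4.51, 5.20 and 6.74 in the controls and 18.8, 12.4, 17.4 and 18.7 after injury. The highest control was control artery 4, and the lowest injured artery, number 2, was still above it. The mean rose from 4.71 ± 1.81 to 16.8 ± 3.03 CPM (SD, n = 4), or by 1.84 on the log2 scale (standard error 0.32, adjusted p = 0.00654 in edgeR's quasi-likelihood test). Leaving out each artery in turn gave 1.61 to 2.06, and Vtn was called in all 8 fits. Vitronectin in plasma comes from the liver. The 6 hepatocyte markers summed to 2.52 to 7.71 CPM in the controls and 3.55 to 6.22 CPM after injury. Of these, 1 (Hp) was called higher (log2 fold change 1.30) and lay above every control. Apoa1 (0.68) and Alb (-2.42) were not called, and Apoa2 and Ahsg had at most 3 counts in any library. The source of the Vtn mRNA was not tested. The ratio of Fn1 counts to Vtn counts within a library was 1350.4, 1069, 625 and 234 in control arteries 1 to 4 and 204, 488, 179 and 241 in injured arteries 1 to 4. Control artery 4 lay among the injured arteries in this ratio.

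Tissue transglutaminase (Tgm2) cross-links fibronectin and other matrix proteins and is made by smooth muscle and endothelial cells. Its level was 1276, 1262, 1171 and 521 CPM in control arteries 1 to 4 and 470.1, 374, 320 and 476 CPM in injured arteries 1 to 4. Every injured artery was below every control, and control artery 4 was the control nearest to them. The mean fell from 1058 ± 361 to 410.0 ± 76.0 CPM (SD, n = 4), with an edgeR estimate of -1.37 on the log2 scale (standard error 0.30, adjusted p = 0.0173 in edgeR's quasi-likelihood test). Without control artery 4 it was -1.60 (adjusted p = 0.000406 in edgeR's test). The call was lost without control artery 2 (adjusted p = 0.0517), without injured artery 2 (0.0632) and with the replicate number as a block (0.0795), all in edgeR's test and with log2 fold changes of -1.28, -1.33 and -1.31. The other transglutaminase of the group, F13a1, encodes the A subunit of factor XIII, which cross-links fibrin and is made by macrophages and megakaryocytes. It had 28.0, 44.5, 32.7 and 26.3 CPM in the controls and 43.5, 21.3, 24.4 and 30.4 CPM after injury. The ranges covered each other, with injured artery 1 near the top and injured artery 2 the lowest. With a log2 fold change of -0.14 (standard error 0.26, 95% interval -0.74 to 0.46, adjusted p = 0.755 in edgeR's quasi-likelihood test) F13a1 was not called. The estimate was -0.24 without control artery 4, and it turned to 0.050 when libraries were scaled by their totals only. A fold change of 2 in either direction lay outside the interval over all 8 arteries.

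Macrophage markers stood much higher in the same injured arteries. Of these 10 markers, 9 were called higher and lay above every control. Over all genes tested, 8.31% were called higher and 23.7% did not overlap between the groups. None of the macrophage markers was at 0, and their summed level was 162 to 222 CPM in the controls and 692 to 923 CPM after injury. Cd163, a marker of resident macrophages, was the exception, at a log2 fold change of 0.09. The 7 platelet and megakaryocyte markers summed to 5.49 to 18.4 CPM in the controls and 19.1 to 27.0 CPM after injury, 0 of them lay above every control, and Tubb1 had at most 3 counts in any library. The part of these cells in the F13a1 level was not tested.

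Tissue factor (F3), the membrane protein that starts coagulation and is made in the media and adventitia of an artery, showed the largest fall of the 10 genes. Its level was 249, 343, 322 and 106 CPM in control arteries 1 to 4 and 97.3, 57.1, 52.7 and 57.4 CPM in injured arteries 1 to 4. The groups did not overlap, but control artery 4 and injured artery 1 lay close together. The mean fell from 255 ± 107 to 66.1 ± 20.9 CPM (SD, n = 4), with an edgeR estimate of -1.95 on the log2 scale (standard error 0.38, adjusted p = 0.011 in edgeR's quasi-likelihood test), which is a 3.86-fold lower level. Without control artery 4 it was -2.21 (standard error 0.23), and when each artery was left out in turn it stayed between -2.21 and -1.78, with F3 called each time.

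Tfpi, the Kunitz-type inhibitor of factor Xa and of the tissue factor complex, went the other way. The control arteries had 7.06, 11.4, 10.6 and 10.1 CPM and the injured arteries 23.4, 26.1, 19.5 and 23.6 CPM. Control artery 4 was unremarkable for this gene, and the lowest injured artery was well above the highest control. The mean rose from 9.78 ± 1.90 to 23.2 ± 2.71 CPM (SD, n = 4), or by 1.24 on the log2 scale (standard error 0.18, adjusted p = 0.00332 in edgeR's quasi-likelihood test), and it was 1.25 without control artery 4. Tfpi was called whichever artery was left out.

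The ratio of F3 counts to Tfpi counts within a library does not depend on scaling. It was 35.2, 30.1, 30.4 and 10.5 in control arteries 1 to 4 and 4.16, 2.19, 2.70 and 2.43 in injured arteries 1 to 4. All injured arteries were below the lowest control, number 4. As neither gene was set to its transcript length, the ratio compares arteries and not the molar amounts of these mRNAs, and it was not tested because both genes are members of the chosen group.

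**Figure D2:**
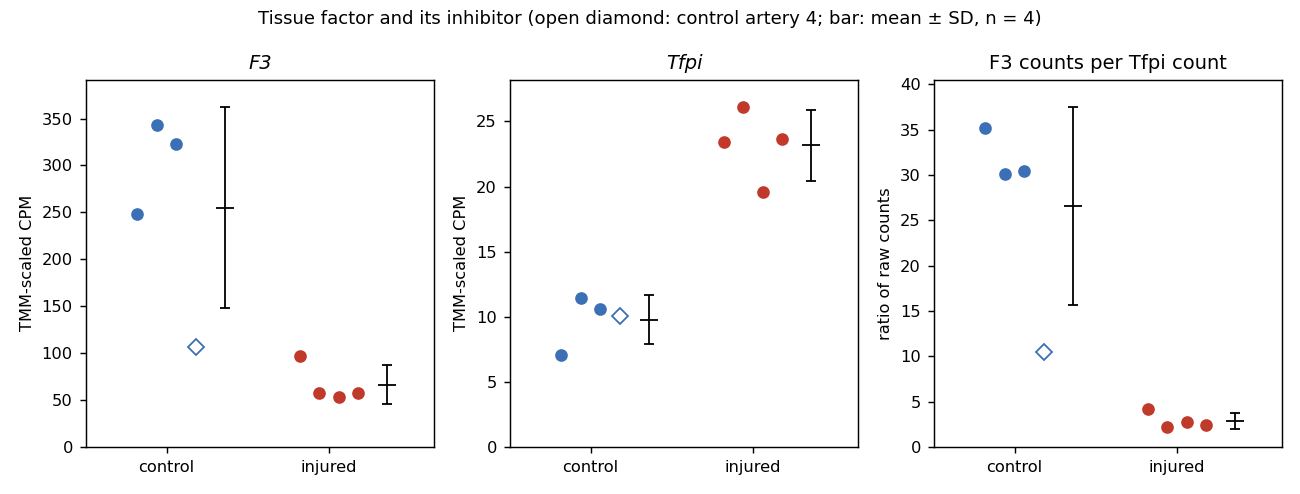
TMM-scaled CPM of F3 and of Tfpi and the ratio of their raw counts in each artery (vertical axes from 0), with one dot per artery, control artery 4 as an open diamond and the mean ± SD (n = 4) as a bar. F3 falls from 106 to 343 CPM in the controls to 52.7 to 97.3 CPM after injury, Tfpi rises from 7.06 to 11.4 CPM to 19.5 to 26.1 CPM, and the ratio goes from 10.5 to 35.2 down to 2.19 to 4.16.

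Tfpi2, a related Kunitz-type inhibitor that is deposited in matrix and inhibits plasmin, was near the detection limit. It had 4, 12, 17 and 9 counts in control arteries 1 to 4 and 24, 61, 17 and 32 counts in injured arteries 1 to 4, where 3 counts, the upper limit that a count of 0 allows, equalled 0.18 to 0.262 CPM of the library total (this limit covers counting error only). In CPM, injured artery 3 lay at 0.955, between control arteries 4 and 2, and the other injured arteries lay at 1.44 to 4.42, above the highest control at 1.18. Tfpi2 was not called, at 1.60 on the log2 scale (standard error 0.59, 95% interval 0.25 to 2.95, unadjusted p = 0.0255, adjusted p = 0.104 in edgeR's quasi-likelihood test) and at 1.51 without control artery 4. A fold change of 2 was thus neither shown nor excluded at this depth.

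Short stretches before the start sites of Vtn, Tfpi and Tfpi2 are printed because these are the members with log2 fold changes above 1. RefSeq promoters on the GRCr8 build, from 250 bases before to 50 bases after a start site, were matched for 6 of the 10 genes (Vtn, Tfpi, Tfpi2, F2r, Procr and F13a1), with 2 start sites for Tfpi. They were searched on both strands for the TATA box TATAAA, the GC box GGGCGG, the AP-1 site TGANTCA and the CArG box by name. The GC box occurred in 33.1% of all 33469 promoters of this length, the TATA box in 14.2%, the AP-1 site in 7.33% and the CArG box in 1.64%. The capitals mark the GC box, on the strand of the gene for Vtn and on the opposite strand for Tfpi and Tfpi2, in windows of 30 bases at chr10:63892704-63892733 (plus strand), chr3:89983578-89983607 (minus strand, upstream start site) and chr4:32941317-32941346 (minus strand).
Vtn: aggatgggaacgGGGCGGggtcagaggatg
Tfpi: tggaagtcatttCCGCCCctatgaggggcc
Tfpi2: acgttttgtgctCCGCCCcgttgggggtcc
The GC box began 66, 52 and 58 bases before the start sites. It was also found in the promoters of F2r and Procr. Of the genes with this match, Vtn and Tfpi were called and Tfpi2, F2r and Procr were not. The letters TGANTCA were found in those of F2r (as TGAGTCA), Procr (as TGACTCA) and Tfpi2 (as TGAATCA). None of the 4 motifs was found at the downstream Tfpi start site or in F13a1. A match of these letters is a description of the sequence and was not set against binding data.

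F2r encodes PAR1, the main thrombin receptor of smooth muscle cells. Its level was 69.3, 88.7, 79.1 and 185 CPM in control arteries 1 to 4 and 76.9, 94.9, 101 and 73.1 CPM in injured arteries 1 to 4. Apart from control artery 4, the highest of the 8, the groups covered nearly the same range. Its log2 fold change was -0.29 (standard error 0.31, adjusted p = 0.578 in edgeR's quasi-likelihood test), and without control artery 4 it turned to 0.13, with a 95% interval from -0.21 to 0.46. A fold change of 2 in either direction lay outside the second interval.

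Thrombomodulin (Thbd), an endothelial and smooth muscle receptor that diverts thrombin from clotting to protein C activation, had 243, 285, 239 and 126 CPM in control arteries 1 to 4. In injured arteries 1 to 4 it had 179.6, 138, 143 and 159 CPM. All injured arteries were below control arteries 1 to 3 and above control artery 4. Thbd had a log2 difference of -0.53 (standard error 0.24, 95% interval -1.08 to 0.02, adjusted p = 0.177 in edgeR's quasi-likelihood test). Without control artery 4 it was -0.73 (95% interval -1.01 to -0.45, adjusted p = 0.00369 in edgeR's test), which passed the false discovery rate and not the fold change criterion. Procr, the endothelial protein C receptor, had 21.8, 42.1, 32.4 and 25.1 CPM in the controls and 23.3, 21.7, 22.1 and 33.2 CPM after injury. Its groups overlapped, and the log2 fold change was -0.27 (standard error 0.24, 95% interval -0.82 to 0.27, adjusted p = 0.478 in edgeR's quasi-likelihood test). A fold change of 2 in either direction lay outside this interval, and the value was -0.36 without control artery 4.

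**Figure D3:**
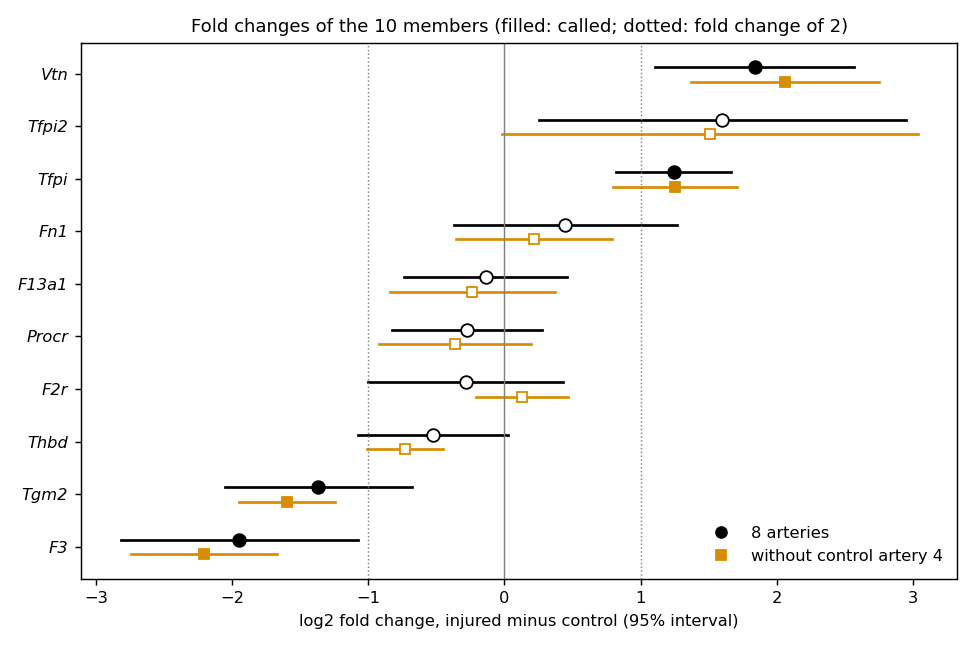
Log2 fold change, injured minus control (horizontal axis), of the 10 genes with its 95% interval from edgeR's quasi-likelihood fit, for all 8 arteries (black circles) and without control artery 4 (orange squares). Filled symbols mark called genes and dotted lines a fold change of 2. F3 (-1.95) and Tgm2 (-1.37) lie at the low end and Vtn (1.84) at the high end, and without control artery 4 F2r moves from -0.29 to 0.13 and Thbd from -0.53 to -0.73.

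The summed contractile smooth muscle markers did not overlap between the groups, whereas the endothelial and the fibroblast sums did. Over all genes tested, 2.57% were called lower and 8.31% higher, and 23.7% did not overlap between the groups. Of 8 contractile smooth muscle markers, 5 were called lower and none higher, 3 lay below every control and none was at 0. Their summed level was 17685 to 51199 CPM in the controls and 10668 to 16764 CPM after injury. Control artery 4 was the lowest control for Tgm2, F3, Thbd, Fn1 and F13a1. The same held for the contractile, endothelial, fibroblast, platelet and megakaryocyte, skeletal muscle and brain neuron sums. For Vtn, F2r and the sympathetic sum it was the highest control. It was neither for Tfpi, Tfpi2 and Procr and the macrophage, hepatocyte and adipocyte sums. Of 10 endothelial markers, 3 were called higher (Cdh5, Kdr and Emcn, named after their values were seen), none was called lower and none was at 0. Their summed level was 553 to 1072 CPM in the controls and 797 to 1112 CPM after injury. The median log2 fold change was -1.35 for the contractile markers and 0.51 for the endothelial markers. Of the endothelial markers, 3 had negative log2 fold changes (Pecam1 -0.44, Nos3 -0.29 and Tek -0.26) and were not called. Of 6 fibroblast markers, Dcn (-1.15) and Pi16 (-1.56) were called lower and Dpt (2.03) higher, none was at 0, and their summed level was 1818 to 3595 CPM in the controls and 1868 to 3165 CPM after injury. Of 6 skeletal muscle markers, 4 were called higher and lay above every control, and none was called lower. The median log2 fold change of the 6 was 3.46. Myh1, Myh2 and Myh4 reached at most 0.417, 0.625 and 0.288 CPM in the controls. They passed the filter on low counts only through the injured arteries, so their calls, their lack of overlap and this median carry no weight. Tnnt3 (2.42) was also called, and Ckm (1.33) and Acta1 (0.98) were not. The part of these cell types in the levels of F3, Tgm2, Tfpi, Thbd and Procr was not tested.

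**Figure D4:**
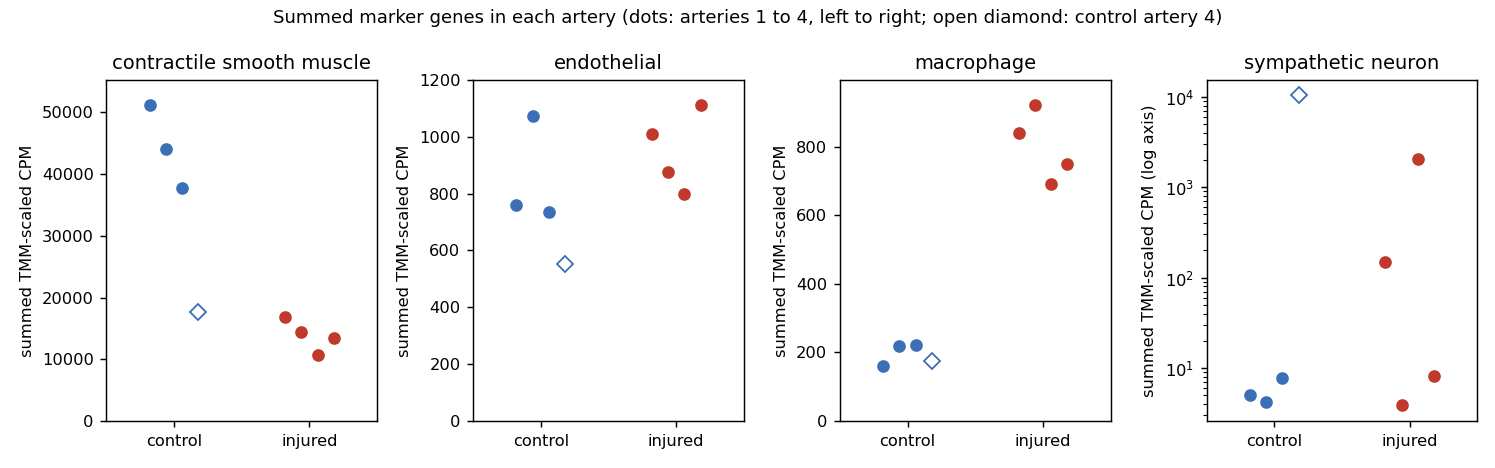
Summed TMM-scaled CPM of the contractile smooth muscle, endothelial, macrophage and sympathetic neuron markers in each artery, one dot per artery, with control artery 4 as an open diamond. The first 3 vertical axes start at 0 and the sympathetic axis is logarithmic, on which control artery 4 (10420 CPM) and injured artery 3 (2078 CPM) stand above the others.

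Around these members, 36 further genes of the coagulation system were listed, of which 33 matched the table and 11 had enough counts for the test. Of the 11, 3 were called lower (F5, Vwf and F2rl2) and 1 higher (F10), and the CPM of these 4 did not overlap between the groups. Over all genes tested, 10.9% were called, 2.57% as lower and 8.31% as higher, and 23.7% did not overlap. F10 passed the filter on low counts only through the injured arteries, so its call and its lack of overlap carry no weight beside these shares. The same 4 genes were called without control artery 4. The median log2 fold change of the 11 was -0.30. Most of the list is made in the liver, and 13 of the 33 genes had at most 3 counts in any library, among them prothrombin (F2), factor IX (F9), the 3 fibrinogen chains (Fga, Fgb and Fgg) and antithrombin (Serpinc1).

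Factor V (F5), the cofactor of factor Xa, was at 96.3, 180.0, 89.9 and 45.4 CPM in control arteries 1 to 4 and at 43.5, 25.1, 16.8 and 21.1 CPM in injured arteries 1 to 4. Control artery 4 and injured artery 1 nearly met. For F5 the log2 fold change was -1.95 (standard error 0.45, adjusted p = 0.0216 in edgeR's quasi-likelihood test). Von Willebrand factor (Vwf), the endothelial protein that tethers platelets, was at 782, 1487, 719 and 443 CPM in the controls and at 365, 238, 192 and 295 CPM after injury, so that all injured arteries were lower. Its log2 fold change was -1.65 (standard error 0.38, adjusted p = 0.0206 in edgeR's quasi-likelihood test). Both calls were lost without injured artery 2 (adjusted p = 0.0715 for F5 and 0.0717 for Vwf in edgeR's test) and without injured artery 4 (0.0779 and 0.0648), and that of Vwf also with the replicate block (0.0681). Without control artery 4, the log2 fold changes were -2.20 for F5 and -1.88 for Vwf, and both were called.

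F2rl2 encodes PAR3, another thrombin-cleaved receptor. It was at 10.1, 10.7, 10.7 and 8.20 CPM in control arteries 1 to 4 and at 2.57, 1.67, 3.65 and 2.21 CPM in injured arteries 1 to 4. The groups were far apart and control artery 4 stayed with the controls. For F2rl2 it was -1.97 on the log2 scale (standard error 0.26, adjusted p = 0.00225 in edgeR's quasi-likelihood test) and -2.05 without control artery 4. The thrombin receptor F2r had -0.29, and the difference between these genes was not tested. F2rl3, which encodes PAR4, had at most 12 counts in any library and was not tested. Factor X (F10), the zymogen that the tissue factor complex activates, had 2 counts over all 4 control arteries and 96 over the 4 injured arteries, between 19 and 37 in each. The ratio of its pooled share of counts was 49.3 (exact 95% interval 13.3 to 413, counting error only). F10 passed the filter on low counts only through the injured arteries, so that its call (adjusted p = 0.00225 in edgeR's quasi-likelihood test) rests on the group in which it was high. The remaining 7 tested genes were not called. Log2 fold changes were 0.90 for the transglutaminase Tgm1, 0.37 for protein S (Pros1), 0.19 for the thrombin inhibitor protease nexin 1 (Serpine2) and 0.14 for factor VIII (F8). They were -0.61 for the protease-activated receptor F2rl1 and -0.49 and -0.30 for Vkorc1 and Ggcx, which serve the gamma-carboxylation of clotting factors.

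**Figure D5:**
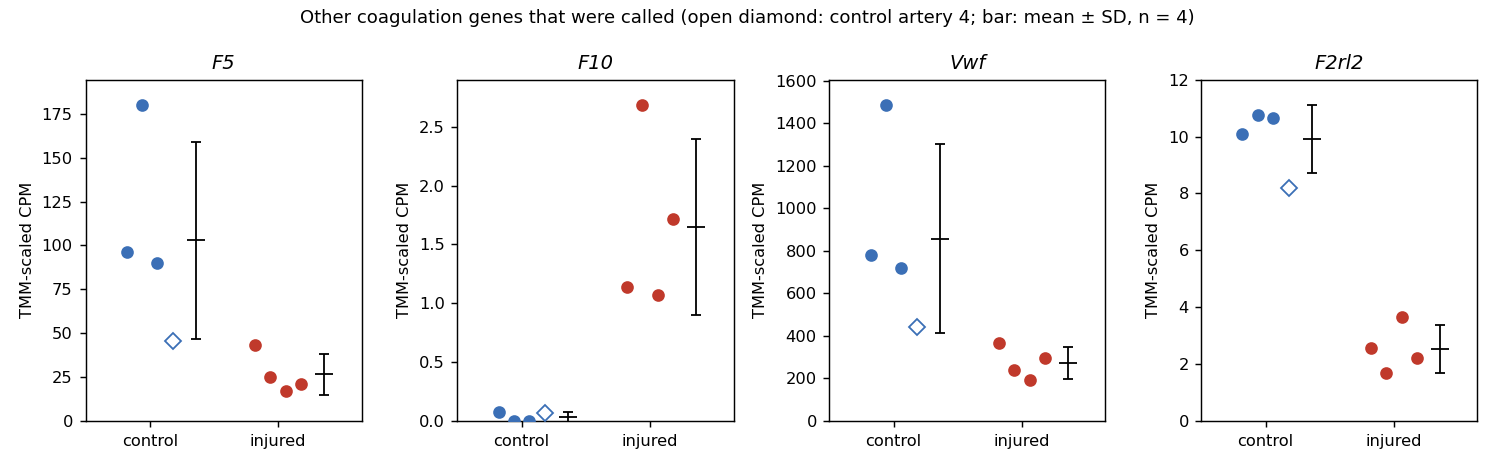
TMM-scaled CPM (vertical axes from 0) of F5, F10, Vwf and F2rl2 in each artery, with one dot per artery, control artery 4 as an open diamond and the mean ± SD (n = 4) as a bar. F10 is nearly at 0 in the controls and at 1.07 to 2.68 CPM after injury, and the other 3 genes are lower in every injured artery than in any control.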

How the data were processed

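mRNA sequencing was analysed from 4 injured and 4 control carotid arteries. The authors deposited raw read counts per gene symbol without normalization. HISAT2 2.0.4 is named in the submitters' processing notes; the counting tool, strand setting, annotation and genome build are not given in the sources used here, so reads shared with overlapping or related genes could not be separated. The label of each count column named its artery.

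With edgeR 4.0.16 in R 4.3.3, genes were filtered with filterByExpr, scaled with TMM factors and compared with the quasi-likelihood test over the whole table, without a covariate. P-values were adjusted by Benjamini-Hochberg over the 14359 genes tested. For a call, the FDR had to be under 0.05 and the fold change over 2, as in the study. Standard errors and 95% intervals were derived from the F statistic. CPM values use TMM-scaled totals of the filtered genes. The labels number both groups 1 to 4, and the study calls the undamaged right carotid artery the self-control. Neither says that the number marks the rat, so the replicate block was an alternative. Alternatives were DESeq2 1.42.0, other scalings and filters, a test against a fold change of 2, the FDR alone and leaving out each artery. Counts were simulated for this comparison, with 200 genes changed 4-fold. On these, edgeR recovered 70% and called 7 unchanged genes (14124 genes tested). EdgeR with the block recovered 51.5% and called 6 (14124 genes). DESeq2 recovered 89.5% and called 42 (14035 genes). The simulated arteries were independent, with no shared effect of a rat and no artery that stood apart. The recovery with the block therefore cannot show how blocking acts on the real counts. Nothing in the labels says more of how the replicates were taken, and p-values measure the spread between these arteries only. Replicate libraries differed by more than sampling noise.

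The members, the coagulation list, the marker lists and the tests were chosen with earlier results of these data known. Named genes are the members, the called genes of the coagulation list and marker genes; the uncalled genes of the coagulation list, the genes named at 3 counts or fewer, and F7 and A2m were picked after their values were seen. Genes were matched by symbol, and Adgre1 by its synonym Emr1. Transcript lengths were not used here, so levels of different genes were not compared. RefSeq promoters of GRCr8 were used for sequence only. Skeletal muscle and adipocyte markers summed to 83.7 to 252 and 27.0 to 311 CPM in the controls and to 263 to 932 and 10.0 to 124 CPM after injury.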

Additional observations from a re-analysis of the deposited data

Results flagged for a closer look

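In 56 groups of 4 arteries, over the CPM of the members and called coagulation genes, the marker sums and the count ratios, 6 had an artery whose gap to its nearest neighbour, as a share of the whole range, exceeded Dixon's 95% critical value, where about 2.8 arise by chance. In 3 of these it was control artery 4. The share was 0.861 for Tgm2 (521 CPM against 1171 in the nearest control), 0.833 for F2r (185 against 88.7 CPM) and 1.0 for the sympathetic neuron markers (10420 against 7.76 CPM). It was 0.93 for the same markers in injured artery 3 (2078 against 149 CPM), 0.893 for F3 in injured artery 1 (97.3 against 57.4 CPM) and 0.858 for Procr in injured artery 4 (33.2 against 23.3 CPM). Without injured artery 1 the log2 fold change of F3 was -2.20, and without injured artery 4 that of Procr was -0.44.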

How the results depend on the processing

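Vtn, F3 and Tfpi were called in every fit except the test against a fold change of 2, in which 0 of the 10 members were called (lowest adjusted p 0.0733, for Vtn). That test called 661 genes in all (600 higher, 61 lower) and 2 coagulation genes (1 lower), against 1562 (1193 and 369) and 4 (3 lower). With the replicate block, 1 member was called lower (F3) in place of 2, and 234 genes were lower in all, while Vtn, F3 and Tfpi were called at adjusted p of 0.0299, 0.0415 and 0.023 in edgeR's test. Arteries with the same number deviated from their group means with correlations of 0.30, 0.45, -0.52 and -0.42. These means include control artery 4 and injured artery 3, which were high in sympathetic neuron markers. The correlations therefore cannot decide whether the numbers pair the arteries. Apart from Tgm2 and Vwf, the block changed no call among the members and named coagulation genes. With at least 10 counts in every sample, 1007 genes were called (715 higher), 0 coagulation genes were higher, and Tfpi2 and F10 could not be fitted. The FDR alone called 2468 genes (918 lower) and the same 4 members. DESeq2 called the same 4 members and 3 coagulation genes as higher, adding F7 and A2m. These added genes were at 0 CPM in every control and had at most 11 (F7) and 46 (A2m) counts in any library. They had not passed the filter of the main fit, and their calls rest on the group in which they were high. With one artery left out, 3 to 4 members were called (2 higher each time, 1 to 2 lower), 2 to 4 coagulation genes (1 higher each time, 1 to 3 lower) and 1142 to 2398 genes in all (945 to 1817 higher, 197 to 581 lower), the highest without control artery 4. For F13a1 the log2 fold change turned to 0.050 with library totals only and ranged from -0.38 (without injured artery 1) to 0.036 (without control artery 2), and that of F2r ranged from -0.45 (without control artery 1) to 0.13 (without control artery 4). Library totals only moved the median of all genes by 0.17 on the log2 scale and the share called higher from 76.4% to 85.1%. No cause was tested for these shifts. Low counts limit Tfpi2, F10, F7 and A2m, which fell under 10 counts in some libraries.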
